A study of Oryza sativa with 10 samples.

Results

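The genes described here are 9 rice transcription factors studied for their part in salt, drought and cold responses, 5 of them C2H2 zinc finger proteins (ZFP252, ZFP179, ZFP182, ZFP36 and DST) and 4 of them MYB proteins (MYB2, MYB4, MYB3R-2 and MYB48-1). They are defined by their gene identifiers, and all 9 are among the 38978 genes counted. Their transcripts were measured by RNA sequencing of roots of 2 rice (Oryza sativa) lines, S13, which the labels call salt tolerant, and S3, which they call salt susceptible. After 30 days of normal growth, plants spent a further 12 days with NaCl at 140 mM (salt) or at 0 mM (control), and they were sampled at 42 days of age. There were 3 libraries for S13 salt, 2 for S13 control, 3 for S3 salt and 2 for S3 control. Both control groups grew for the same time as the salt groups. The labels give no mutation or transgene for either line, nor do they tie libraries to individual plants, so p-values measure the spread between libraries, which may be technical.

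C2H2 zinc finger proteins of this kind bind DNA through a finger in which paired cysteines and histidines hold a zinc ion, and many are induced by dehydration, salt or the hormone abscisic acid. MYB proteins bind DNA through repeats with regularly spaced tryptophans. In rice, raising the level of ZFP252, ZFP179, ZFP182, ZFP36, MYB2 or MYB48-1 has been linked to better tolerance of salt, drought or oxidative stress, whereas DST acts in the opposite direction, since plants that lack it tolerate drought and salt better.

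The libraries held 22938524 to 25703942 counts, and 28189 genes, all 9 factors among them, passed the filter on low counts. Levels are given as CPM, counts scaled to a common library size with a TMM factor, which corrects for a few abundant genes taking much of a library. That factor lay between 0.729 and 0.922 for salt and between 1.31 and 1.42 for control libraries, so the scaling itself differed by treatment. When library totals alone set the scale, the median log2 fold change of all tested genes was -0.76 in S13, against -0.03 with TMM factors, and -0.77 in S3, against -0.06. The labelled tissue could not be checked against root markers, because the sources used here do not pair nuclear identifiers with names. The 15 plastid photosystem genes that the files name held 0.0108% to 0.0188% of counts in S13 salt, 0.0125% to 0.0282% in S13 control, 0.0172% to 0.0326% in S3 salt and 0.0168% to 0.0219% in S3 control. These ranges overlapped in both lines, and their part in the results below was not tested.

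DST fell under salt in both lines, and ZFP252 rose in S3. These were the only calls among the 9 factors in the tests of salt. In S13, 1 of 9 was called (0 higher and 1 lower), against 27.1% of all tested genes (12.8% higher, 14.2% lower). In S3, 2 of 9 were called (1 higher and 1 lower), against 32.8% of all tested genes (14.4% higher, 18.4% lower). A call is a Benjamini-Hochberg adjusted p under 0.05 over all tested genes in edgeR's quasi-likelihood test. The median log2 fold change of the 9 was 0.23 in S13, where that of all tested genes was -0.03, and 0.18 in S3, where that of all tested genes was -0.06. When library totals alone set the scale, 0 of the 9 were higher and 3 lower in S13, and 0 were higher and 2 lower in S3. Over all genes that scaling called 1375 higher and 10004 lower in S13, against 3613 and 4014 with TMM factors, and 1636 higher and 10407 lower in S3, against 4059 and 5178.

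**Figure D1:**
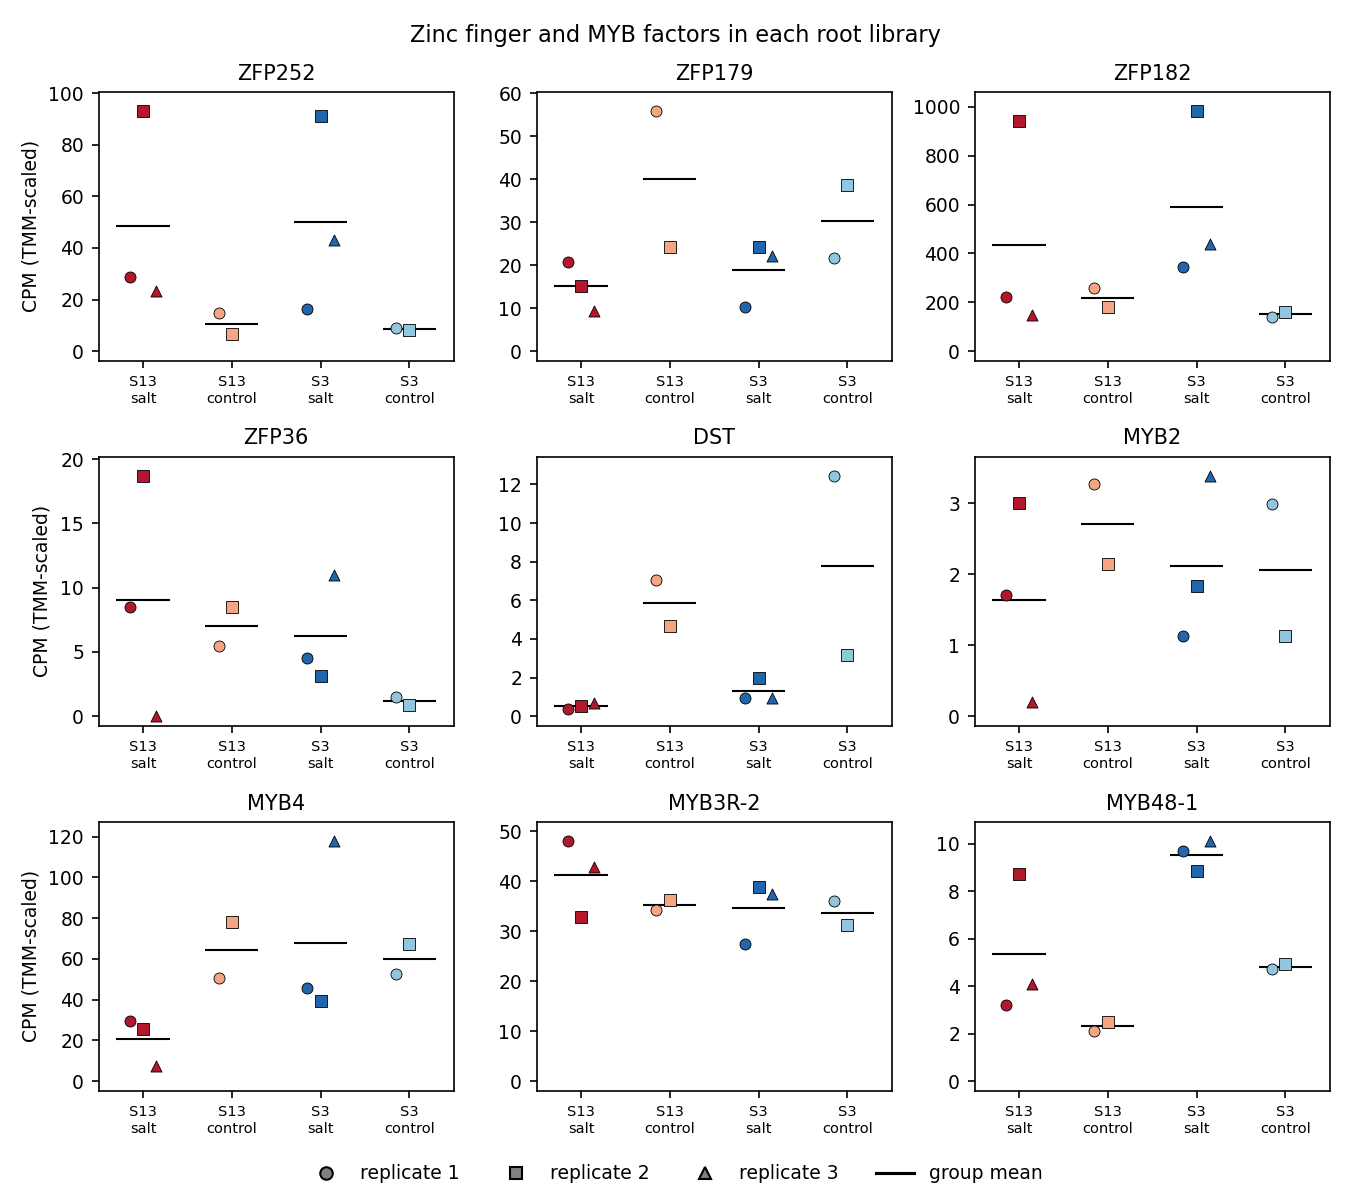
CPM (TMM-scaled, linear axis) of each factor in the 10 libraries, with 1 panel per gene, a marker shape per replicate and a line at each group mean. Replicate numbers were not taken to pair libraries across groups. DST lies at or below 2.00 CPM in all salt libraries, and ZFP252 and ZFP182 are highest in the second salt library of each line.

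DST, a zinc finger factor that in rice controls genes of hydrogen peroxide removal and keeps stomata open, (Os03g0786400) was counted on chromosome 3 (IRGSP-1.0, 32645695 to 32646908, minus strand, a single exon block of 1214 bases). It stood at 0.396, 0.520 and 0.657 CPM in the S13 salt libraries, against 7.06 and 4.68 CPM in the S13 control libraries. The S13 salt values came from 9, 9 and 13 counts, above the floor of 3 counts that stands for a gene not detected. Each S13 salt library lay below both control libraries. The log2 fold change was -3.48 ± 0.61 (SE), with an adjusted p of 0.00378 by edgeR's quasi-likelihood test, which makes DST 11.1-fold lower under salt in S13. Because whole roots were sequenced, fewer cells with DST transcripts and less transcript per cell cannot be told apart.

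In S3, DST stood at 0.939, 2.00 and 0.918 CPM in the salt libraries, against 12.4 and 3.17 CPM in the control libraries. Again no salt library reached a control library, but the 2 controls differed from each other 3.92-fold. The log2 fold change was -2.60 ± 0.57 (SE), with an edgeR adjusted p of 0.00754, a 6.08-fold lower level under salt in S3. Without the first S3 control library, which held the higher value, the log2 fold change was -1.30 and the adjusted p was 0.148. In S13 DST was called under each of the 14 other settings, with adjusted p-values of 3.3e-06 to 0.0363, and in S3 under 13 of 14, with adjusted p-values of 0.000328 to 0.148. The 14 settings include the fit without the second salt library of both lines, which was chosen after seeing the data. Under library totals the log2 fold changes of DST were -4.22 in S13 and -3.38 in S3.

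ZFP252, whose overexpression in rice raises free proline and soluble sugars and tolerance to salt and drought, is Os12g0583700 on chromosome 12 (24237212 to 24238416, minus strand). Its levels in S3 were 16.5, 91.0 and 43.0 CPM in the salt libraries, against 8.92 and 8.23 CPM in the controls. The controls were nearly equal, while the salt libraries spread 5.52-fold, all of them above both controls. The log2 fold change was 2.55 ± 0.78 (SE), with an edgeR adjusted p of 0.0302, a 5.84-fold higher level under salt. The call was lost without the first S3 control library (adjusted p = 0.146), the second S3 control library (adjusted p = 0.137) or the second S3 salt library (log2 fold change 1.79, adjusted p = 0.0980). It was also lost with library totals (log2 fold change 1.77, adjusted p = 0.0539).

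In S13, ZFP252 had 28.9, 93.0 and 23.3 CPM in the salt libraries, against 14.7 and 6.48 CPM in the controls. The salt libraries again lay above both controls, with the second far above the others. The log2 fold change was 2.19 ± 0.77 (SE) with a 95% interval from 0.49 to 3.89, and it missed the threshold (edgeR adjusted p = 0.0562). Without the second S13 salt library it was 1.30, with an adjusted p of 0.153. ZFP252 in S13 was called under 3 of the 14 other settings, among them DESeq2 (log2 fold change 2.23, adjusted p = 0.00799). The responses of the lines were not shown to differ, as their difference (S13 minus S3) was -0.36 ± 1.00 (SE) on the log2 scale, with a 95% interval from -2.57 to 1.86.

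ZFP179, a salt- and abscisic acid-induced factor whose overexpression in rice raises salt tolerance, is Os01g0839100 on chromosome 1 (36001242 to 36002101, plus strand). In S13 it had 20.7, 15.3 and 9.35 CPM under salt, against 55.9 and 24.1 CPM in controls. All salt libraries were below both controls, yet the log2 fold change of -1.40 ± 0.48 (SE) missed the threshold (edgeR adjusted p = 0.0512). Leaving out the first S13 control gave -0.68. ZFP179 in S13 was called under 5 of the 14 other settings, among them DESeq2 (log2 fold change -1.38, adjusted p = 0.0285). In S3 its values were 10.3, 24.3 and 22.2 CPM under salt, against 21.7 and 38.8 CPM in controls. There the groups overlapped, and the log2 fold change was -0.68 with a 95% interval from -1.74 to 0.39.

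ZFP182, which in rice takes part in abscisic acid-induced antioxidant defence, was by far the most abundant of the 9. It is Os03g0820300 on chromosome 3 (34424180 to 34425030, plus strand). In S3 it had 346, 982 and 437 CPM under salt, against 141 and 162 CPM in controls. The groups did not overlap, and the log2 fold change of 1.96 ± 0.75 (SE), a level 3.88-fold higher, missed the threshold (edgeR adjusted p = 0.0656). Without the second S3 salt library it was 1.37. In S13 the values were 221, 941 and 148 CPM under salt, against 257 and 182 CPM in controls. Here the groups overlapped, and the second salt library alone lay above both controls. The log2 fold change was 0.99 with a 95% interval from -0.59 to 2.57, and it was -0.25 without that library.

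ZFP36 acts in the same abscisic acid-induced antioxidant defence in rice and is Os03g0437200 on chromosome 3 (18435990 to 18437086, minus strand). In S13 salt it had 193, 323 and 0 counts, or 8.49, 18.7 and 0 CPM, against 5.47 and 8.50 CPM in S13 controls. The third salt library, at 0 of 25703942 counts, allows up to 0.152 CPM, a limit that covers counting error only, while the second held the highest ZFP36 value of all 10. The log2 fold change of 0.37 had a 95% interval from -2.28 to 3.02, it was 0.96 without the third salt library, and limma-voom gave -2.13. In S3 the values were 4.51, 3.11 and 11.02 CPM under salt, against 1.47 and 0.867 CPM in controls. All S3 salt libraries were above both controls, but the log2 fold change of 2.41 ± 1.34 (SE) was not called (edgeR adjusted p = 0.188). Without the third S3 salt library it was 1.70.

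MYB4, known for raising cold and freezing tolerance when the rice gene is expressed in Arabidopsis, is Os04g0517100 on chromosome 4 (25843038 to 25844912, minus strand). In S13 it had 29.5, 25.6 and 7.53 CPM under salt, against 50.5 and 78.1 CPM in controls. Each salt library was below both controls, and the log2 fold change of -1.62 ± 0.57 (SE) missed the threshold (edgeR adjusted p = 0.0550). In S3 it had 45.8, 39.5 and 118 CPM under salt, against 52.5 and 67.4 CPM in controls. These groups overlapped, with the third salt library above both controls and the other salt libraries below them, and the log2 fold change was 0.18 with a 95% interval from -1.09 to 1.44.

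MYB48-1, a MYB-related protein whose overexpression in rice raises drought and salt tolerance and abscisic acid levels, is Os01g0975300 on chromosome 1 (43096401 to 43097949, plus strand). In S13 it had 3.21, 8.73 and 4.09 CPM under salt, against 2.11 and 2.51 CPM in controls. In S3 it had 9.67, 8.83 and 10.1 CPM under salt, against 4.70 and 4.93 CPM in controls. In both lines every salt library was above both controls. The log2 fold changes were 1.21 ± 0.42 (SE) in S13 and 0.98 ± 0.41 (SE) in S3, and neither was called (edgeR adjusted p = 0.0559 in S13 and 0.0886 in S3). With library totals they were 0.42 in S13 and 0.28 in S3. Without the second S13 salt library, which held the highest value, the S13 estimate was 0.66 (edgeR adjusted p = 0.127).

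MYB2, whose overexpression in rice raises tolerance to salt, cold and dehydration, is Os03g0315400 on chromosome 3 (11326096 to 11328222, minus strand). It had 1.71, 3.01 and 0.202 CPM in S13 salt, against 3.27 and 2.14 CPM in S13 controls. In S3 it had 1.13, 1.83 and 3.38 CPM under salt, against 2.99 and 1.13 CPM in controls. The groups overlapped in both lines. The lowest value, in the third S13 salt library, rested on 4 counts, and that library also held no ZFP36 count and the lowest MYB4 value of all.

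MYB3R-2, which carries a further MYB repeat and in rice binds the promoter of a mitotic cyclin gene, is Os01g0841500 on chromosome 1 (36122786 to 36128441, plus strand, 9 exon blocks). It had 48.0, 32.9 and 42.8 CPM in S13 salt, against 34.2 and 36.2 CPM in S13 controls. In S3 it had 27.5, 38.8 and 37.5 CPM under salt, against 36.0 and 31.2 CPM in controls. All groups overlapped. The 95% intervals of the log2 fold changes were the narrowest of the 9, from -0.33 to 0.79 in S13 and from -0.52 to 0.60 in S3, so changes beyond 2-fold lay outside them at this scaling. With library totals the estimates were -0.49 in S13 and -0.68 in S3.

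**Figure D2:**
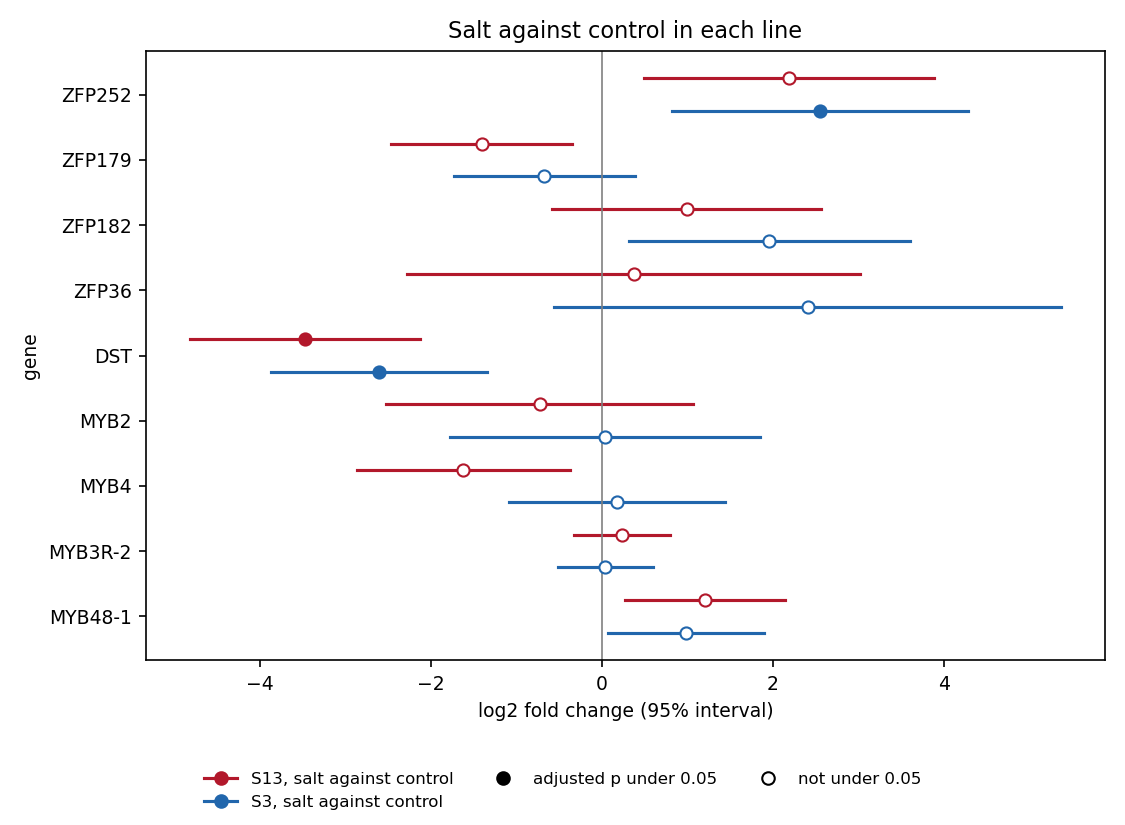
Log2 fold change of salt against control for each factor (horizontal axis), with the 95% interval from edgeR's quasi-likelihood test as a bar, S13 in red above S3 in blue, and filled points for an adjusted p under 0.05. DST at -3.48 and -2.60 and ZFP252 in S3 at 2.55 are the filled points, while several open points have intervals that do not include 0.

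The count of factors whose libraries did not overlap between salt and control was close to that of all genes. In S13 it was 5 of 9 (ZFP252 and MYB48-1 higher, ZFP179, DST and MYB4 lower), where 57.5% of all tested genes did not overlap (25.8% higher, 31.8% lower). In S3 it was also 5 of 9 (ZFP252, ZFP182, ZFP36 and MYB48-1 higher, DST lower), where 61.7% of all tested genes did not overlap (28.2% higher, 33.6% lower). At an unadjusted p under 0.05 edgeR listed 5 of the 9 in S13 and 4 in S3, against 40.9% and 44.9% of all tested genes. DESeq2 called 5 in S13 and 4 in S3, against 33.9% and 38.7% of all tested genes. The 5 were ZFP252, ZFP179, DST, MYB4 and MYB48-1, and the 4 were ZFP252, ZFP182, DST and MYB48-1. Limma-voom called 2 in each line, against 29.1% in S13 and 34.6% in S3.

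Between the lines, edgeR called 0 of the 9 factors under salt and 0 without salt, against 3.57% of all tested genes under salt (1.80% higher, 1.77% lower) and 1.42% without (0.756% higher, 0.667% lower). At an unadjusted p under 0.05 it listed 3 under salt and 1 without, against 15.7% and 8.75% of all tested genes. DESeq2 called 1 under salt and 0 without salt, against 6.72% and 3.00% of all tested genes, and limma-voom 0 in both, against 3.36% and 1.86%. The 1 factor called by DESeq2 was MYB4 under salt, with a log2 fold change (S13 against S3) of -1.70 and an adjusted p of 0.0258. In edgeR the same value was -1.70 ± 0.53 (SE), with an adjusted p of 0.130, and every S13 salt library lay below every S3 salt library. Without the third S3 salt library, the highest, it was -1.03, with an adjusted p of 0.335. DST under salt was also lower in each S13 library than in any S3 library, with a log2 fold change of -1.28 and a 95% interval from -2.56 to -0.01 (edgeR adjusted p = 0.316).

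MYB48-1 was lower in each S13 library than in any S3 library both under salt (log2 fold change -0.84 ± 0.36, SE) and without salt (-1.06 ± 0.45, SE), and neither was called (edgeR adjusted p = 0.290 under salt and 0.518 without). Without the second S13 salt library the comparison under salt gave -1.38 with an adjusted p of 0.0198. For ZFP36 without salt the log2 fold change was 2.57 ± 1.41 (SE), and its S13 control libraries were both above those of S3 (edgeR adjusted p = 0.706). Under salt, 3 of 9 factors did not overlap between the lines (0 higher and 3 lower), where 17.5% of all tested genes did not (8.74% higher, 8.80% lower). Without salt, 3 of 9 did not overlap (ZFP182 and ZFP36 higher, MYB48-1 lower), where 47.0% of all tested genes did not (21.9% higher, 25.1% lower).

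The test of the difference between the salt responses called 0 of the 9 factors, and 0 of all tested genes, in edgeR. At an unadjusted p under 0.05 it listed 0 of the 9 and 2435 of all genes (8.64%). DESeq2 called 0 of the 9 and 142 of all genes (0.504%), and limma-voom 0 of both. With shares this low, 0 of 9 does not set the factors apart from all genes. The estimate for MYB4 was -1.80 ± 0.82 (SE), with a 95% interval from -3.59 to 0.0017 and an unadjusted p of 0.0502. For DST it was -0.87 ± 0.83 (SE), with a 95% interval from -2.71 to 0.97, and it ran from -2.17 to -0.20 as single libraries were left out.

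**Figure D3:**
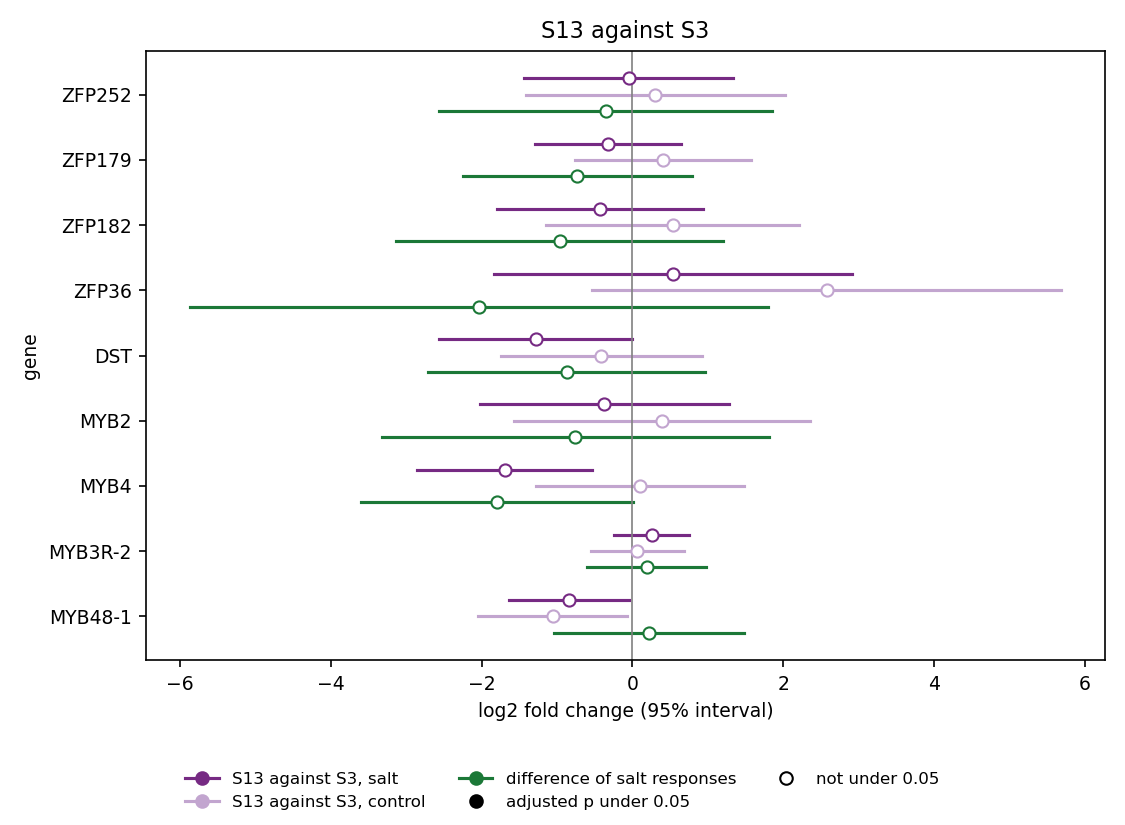
Log2 fold change of S13 against S3 under salt (dark purple) and in control (light purple), and the difference of the salt responses, S13 minus S3 (green), with 95% intervals from edgeR's quasi-likelihood test. No point is filled, since none of the 9 factors had an adjusted p under 0.05, and MYB4 under salt, at -1.70, lies farthest from 0 relative to its interval.

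Levels of different genes were compared as RPKM, that is CPM per kilobase of exon. ZFP182 was the highest of the 9 in all groups, at 513 ± 515 RPKM in S13 salt (SD, n = 3), 258 ± 62.4 in S13 control (SD, n = 2), 692 ± 404 in S3 salt (SD, n = 3) and 178 ± 17.9 in S3 control (SD, n = 2). Its libraries did not overlap with those of the next factor in any group, and its mean exceeded that of 98.3% to 99.4% of tested genes. Within single libraries, a comparison that needs no scaling between libraries, ZFP182 made up 77.5% to 93.0% of the summed RPKM of the 5 zinc finger factors.

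Below ZFP182 the order depended on treatment. Under salt ZFP252 came next, at 40.2 ± 32.1 RPKM in S13 and 41.6 ± 31.3 in S3 (SD, n = 3 each), but its libraries overlapped with those of the factor after it. In controls ZFP179 came next, at 46.5 ± 26.1 RPKM in S13 and 35.2 ± 14.1 in S3 (SD, n = 2 each), and it overlapped with MYB4, at 34.3 ± 10.4 and 32.0 ± 5.63. MYB3R-2 followed MYB4 in controls without overlap, at 13.7 ± 0.55 and 13.1 ± 1.32 RPKM (SD, n = 2 each). Under salt DST was the lowest of the 9, at 0.432 ± 0.108 RPKM in S13 and 1.06 ± 0.509 in S3 (SD, n = 3 each), and its libraries overlapped with those of MYB2. In controls DST stood at 4.83 ± 1.39 and 6.42 ± 5.39 RPKM (SD, n = 2 each), and the lowest factors were MYB48-1 in S13, at 1.49 ± 0.182, and ZFP36 in S3, at 1.06 ± 0.386.

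**Figure D4:**
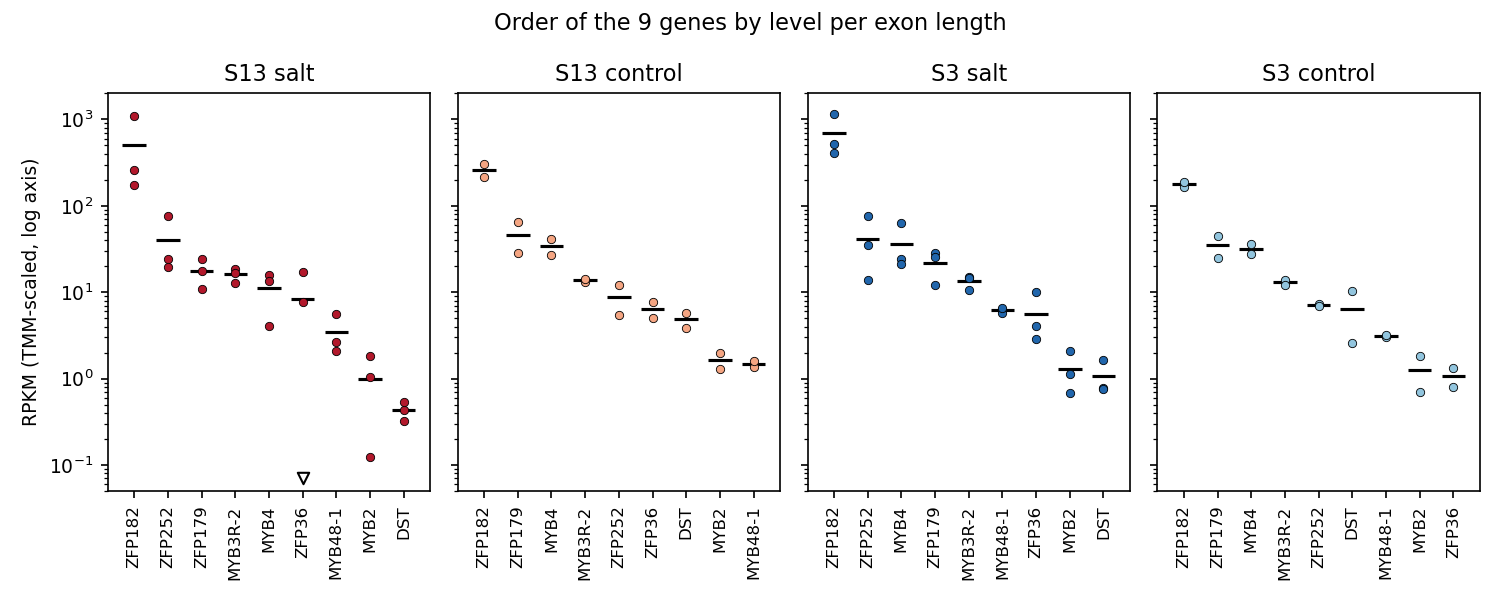
RPKM (TMM-scaled, log axis) of the 9 factors in each group, sorted by group mean (line), with a point per library; the open triangle marks ZFP36 in the library with 0 counts, which has no place on a log axis. By group mean, ZFP182 is first in all 4 groups and DST is last under salt in both lines.

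The ratio of ZFP182 to DST per exon length, taken within a library, was 798, 2578 and 321 in S13 salt, against 52.0 and 55.6 in S13 control. In S3 it was 526, 701 and 679 under salt, against 16.2 and 73.1 in control. In both lines the salt libraries lay above both controls, whatever factor scales a library. Both genes enter this ratio, so it does not measure DST alone. ZFP182 was at 941 CPM in the S13 salt library with the ratio of 2578. DST held 9 to 36 counts in the salt libraries. How many pairs of genes separate in this way was not counted. The ratio of ZFP182 to ZFP252 was 10.8, 14.3 and 8.99 in S13 salt, against 24.8 and 39.8 in S13 control, and did not overlap there. In S3 it was 29.7, 15.3 and 14.4 under salt, against 22.4 and 27.9 in control, where it overlapped.

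The median coefficient of variation over the 9 was 56.2% in S13 salt, 29.6% in S13 control, 54.6% in S3 salt and 17.6% in S3 control. It was lowest for MYB3R-2 in S13 (18.6% under salt, 4.01% in control) and for MYB48-1 in S3 (6.77% under salt, 3.38% in control). In S13 salt the second library held the highest value of its group for 5 of the 9 factors and the third the lowest for 6. In S3 salt the second library was highest for 5 and the first lowest for 5. The second salt library also had the lowest TMM factor of its group, 0.729 in S13 and 0.753 in S3. These counts and coefficients were not worked out over all genes, so they are not shown to be particular to the 9 factors. The coefficients rest on 3 salt and 2 control libraries per line. Without the second salt library of both lines, a setting chosen after seeing the data, the count of factors called in S13 was 1 (DST) and in S3 4 (ZFP252, ZFP182 and MYB48-1 higher, DST lower), against 26.0% of all genes tested in S13 and 29.9% in S3.

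None of the 9 shared exon bases with another gene of the files. Whether the counting used strand is not stated, and reads running over from an adjacent gene were not tested for. The 5 zinc finger factors each had a single exon block of 851 to 1214 bases, and ZFP179 and MYB3R-2 lay 120685 bases apart on chromosome 1. Among 23149 other genes with a mean of at least 1 CPM, the gene whose profile over the 10 libraries was most like that of DST was Os02g0570500 (chromosome 2, 21788170 to 21791222). The root mean square difference of their log2 CPM, each centred on its own mean, was 0.31. Os02g0570500 averaged 1.39 ± 0.439 CPM in S13 salt (SD, n = 3) and 12.3 ± 1.88 in S13 control (SD, n = 2), and 2.096 ± 0.187 in S3 salt (SD, n = 3) and 13.6 ± 9.80 in S3 control (SD, n = 2). The gene most like ZFP252 was Os03g0826800 (chromosome 3, 34733490 to 34734706), with a root mean square difference of 0.22. Both genes were picked for these profiles, so their levels restate the likeness and are given with no test. The sources used here give no name for either gene.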

How the data were processed

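RNA was sequenced from 10 root libraries, per the labels' protocols. The authors deposited raw read counts per gene, with exon positions and lengths, per the file headers. FastQC, Trimmomatic, HISAT2, featureCounts and DESeq2 are named with build IRGSP-1.0 per the submitters' processing notes, without versions or settings. Gene names are those given with the identifiers that define the 9 factors; the reference table paired 0 of 9 with a name, and no sequence was used. The main test was edgeR 4.0.16 (R 4.3.3), after filterByExpr and TMM scaling, with the quasi-likelihood method fitted to all libraries as 4 groups without a block. SE is the log2 fold change divided by the square root of F; intervals are 95%. The factors named are the 9 chosen by identifier, and for those called, the gene with the most similar profile. Alternatives used DESeq2 1.42.0, limma-voom (limma 3.58.1), other scalings and filters, compared groups alone, a replicate block and each library left out. A further alternative for the salt comparisons, without the second salt library of both lines, was chosen after seeing the data. All are refits of the same 10 libraries. Members, lists and tests were chosen with earlier results of these data known. Lists of related zinc finger, MYB and downstream genes, promoter motifs and root markers were not used, because the identifiers could not be paired with names or proteins. CPM and RPKM values depend on the TMM factors, and floors of 3 counts cover counting error only.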

Additional observations from a re-analysis of the deposited data

How the results depend on the processing

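The sign of DST and of ZFP252 in both salt comparisons held under all 14 alternatives run for each, and so did the signs of ZFP179 and MYB48-1. Factors called in S13 under salt numbered 1 (27.1% of all genes tested). The number was 3 with library totals (40.4%), 4 with no filter (20.3%), 5 in DESeq2 (33.9%) and 2 in limma-voom (29.1%). With at least 5 CPM in at least 2 libraries it was 2 of the 8 tested (31.8%). With 1 S13 salt library left out it was 1 to 3 (21.4% to 27.6%). Factors called in S3 numbered 2 (32.8%). The number was 4 in DESeq2 (38.7%), 5 in a fit of the compared groups alone (36.5%) and 4 without the second salt library of both lines (29.9%). With 1 S3 salt library left out it was 1 to 2 (21.2% to 27.9%). Without the first S3 control library, which leaves a lone control, neither DST nor ZFP252 kept its S3 call. Their log2 fold changes there were -1.30 and 2.61. Between the lines, the compared groups alone called 1 factor in control (ZFP36, adjusted p = 0.0382, against 2.06% of all genes). DESeq2 called 1 under salt (6.72%). With 1 salt library left out, 0 to 1 were called under salt (1.89% to 7.04%). For the difference of the responses, 0 factors were called with 1 salt library left out (0% to 0.0107% of all genes).

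Over all genes, leaving out 1 library gave 1503 to 7748 calls in S13 (7627 with all libraries) and 3224 to 7816 in S3 (9237 with all). The counts moved most without a control library, to 1503 or 2467 in S13 without its first or second control and to 3224 or 5277 in S3 without its first or second control; without the second S3 salt library the S3 count was 5965. Between the lines it gave 530 to 1978 under salt (1005 with all), 230 to 275 in control (401 with all), and 0 to 9 for the difference (0 with all). DESeq2 called 1893 genes between the lines under salt, 846 in control and 142 for the difference. At least 5 CPM in at least 2 libraries left 634 and 246 in salt and control, and the compared groups alone 634 under salt.

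No estimate that changed sign was a call in its own comparison. With library totals in S13, ZFP36 was at -0.40 and MYB3R-2 at -0.49; in S3, MYB2 was at -0.70, MYB4 at -0.50 and MYB3R-2 at -0.68. In limma-voom ZFP36 was at -2.13 in S13 and at -1.80 between the lines under salt. Without the second salt library of both lines, ZFP182 was at -0.25 and ZFP36 at -0.71 in S13, and MYB3R-2 at -0.035 in S3. MYB3R-2 in S3 was at -0.013 with the 5 CPM filter. The cause of these changes was not tested. With 1 library left out, ZFP182 ran from -0.25 to 1.40 and ZFP36 from -0.71 to 0.96 in S13. In S3, MYB2 ran from -0.50 to 0.90, MYB4 from -0.49 to 0.45 and MYB3R-2 from -0.058 to 0.18. Between the lines in control, ZFP252 ran from -0.40 to 0.78, ZFP179 from -0.32 to 0.89, DST from -1.08 to 0.89, MYB2 from -0.14 to 1.25, MYB4 from -0.25 to 0.38 and MYB3R-2 from -0.032 to 0.17. Under salt, ZFP252 ran from -0.94 to 0.70, ZFP182 from -1.67 to 0.16, ZFP36 from -0.54 to 1.24 and MYB2 from -1.12 to 0.15. The difference of the responses ran from -1.25 to 0.40 for ZFP252 and from -0.33 to 0.46 for MYB48-1.

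With a replicate block, edgeR called 1 factor in S13, against 21.7% of all genes (6110). In S3 it called 3 (ZFP182 as well, adjusted p = 0.0314), against 29.7% (8372). Between the lines it called 0, against 2.97% of all genes under salt and 1.20% in control. For the difference of the responses it called 0 factors and 0 genes. MYB3R-2 in S3 was at -0.0009 in that fit. Deviations of libraries with equal numbers correlated from -0.16 to 0.25. Of 6 salt libraries 2 correlated best with their own number, namely the second of each line with each other. With so few libraries this cannot decide whether equal numbers pair. The labels state no such pairing, so the numbers were not taken as pairs. Where 1 control library was left out, the lone library was assumed to vary like the other groups. The alternative on promoter windows was not run, and MYB2 did not pass the 5 CPM filter. At 9 to 13 counts, DST in S13 salt has the least depth behind any call among the 9 factors.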

Other observations

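The tested genes on either side of each factor, without shared exon bases, made 18 neighbours. Of these, 5 were called in S13 (3 higher and 2 lower) and 5 in S3 (4 higher and 1 lower), or 27.8% in each line, against 27.1% and 32.8% of all tested genes. Os12g0583801, which lies head to head with ZFP252, its start 9 bases from the 5′ end of that gene on the opposite strand (chromosome 12, 24238425 to 24243743), rose in both lines, as ZFP252 did in S3. It averaged 2.93 ± 2.58 CPM in S13 salt (SD, n = 3) and 0.306 ± 0.216 in S13 control (SD, n = 2), and 2.29 ± 0.956 in S3 salt (SD, n = 3) and 0.274 ± 0.0845 in S3 control (SD, n = 2). Its log2 fold changes were 3.23 ± 0.83 (SE) in S13 and 3.04 ± 0.84 (SE) in S3, with edgeR adjusted p-values of 0.0182 and 0.0195. Its control values were low, 0.153 to 0.458 CPM in S13 and 0.214 to 0.333 CPM in S3. The floor of 3 counts lay at 0.0916 to 0.100 CPM in the control libraries, so these rises start near it. Os12g0583801 was singled out after its values were seen, and it shares no exon bases with ZFP252. Reads running over from ZFP252 were not tested for.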
